A study of Mus musculus with 6 samples.

Results

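The B-cell genes described here are 9 genes of B lymphocytes, Cd79a, Cd79b, Ms4a1, Cd22, Ighm, Jchain, Pax5, Fcrla and Cd37, among 21506 genes measured in left ventricle. They were listed by name, and each was the gene of exactly 1 array row under the platform annotation, so all 9 were measured and no filter removed any. Gene expression was measured in 6 male mice aged 10 to 14 weeks, with 1 Affymetrix Mouse Gene 2.0 ST array per mouse. The 3 sickle mice were homozygous for an engineered human beta-globin allele of sickle haemoglobin, Hbbtm2(HBG1,HBB*)Tow. The 3 control mice were homozygous for the matching non-sickling allele, Hbbtm3(HBG1,HBB)Tow. Both groups also carried the human alpha-globin replacement Hbatm1(HBA)Tow on the mixed B6;129 strain background, so neither was a wild-type mouse. The tissue was whole left ventricle, in which more B cells and more RNA per B cell cannot be told apart.

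B cells recognise antigen through a surface immunoglobulin, whose IgM heavy chain is encoded by Ighm. The immunoglobulin is held in a complex with the signalling chains CD79A and CD79B, and antigen binding passes through these chains to cytoplasmic kinases. CD22 restrains that signal, and PAX5 is the transcription factor that keeps a cell in the B lineage. In the heart, B cells are known mostly as cells held in or passing through small vessels, and in mouse blood they make up a large part of the white cells.

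All values below are log2 signals, deposited after RMA (background correction, quantile normalisation and summary of the probes of a row), and all differences are sickle minus control on that scale. All 14 cardiomyocyte markers measured were above the background yardstick described next on all 6 arrays. As a yardstick for signal without expression, the 95th percentile of 1081 olfactory receptor genes lay between 4.78 and 5.13 on the 6 arrays, and Xist, which male cells do not express, lay between 3.44 and 4.10. Sickle replicate 3 stood apart from the other arrays: its score on the first principal component was 43.3, against -3.35 to -2.31 in the other sickle mice and -15.1 to -11.2 in control mice. Results are therefore also given without it.

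The genes of the antigen receptor's signalling chains and of CD20 were higher in every sickle ventricle than in any control ventricle. Cd79a rose 2.17-fold. Cd79b and Ms4a1 had measured log2 differences of 0.65 and 0.69 over a control signal near the array's floor. Neither passed the test over all genes. Ighm and Jchain were not higher, at signals mostly below the background yardstick. Of the 9 genes, 1 rose after adjustment over all genes, where 0.167% of the 21506 genes were called higher.

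Cd79a encodes the receptor's Ig-alpha chain, which carries its signal into the cell. Its log2 signal was 6.39, 6.19 and 5.96 in the sickle mice, against 5.19, 5.17 and 4.83 in the control mice. The groups did not overlap, and the lowest sickle array was 0.78 above the highest control array. Cd79a averaged 6.18 ± 0.21 in sickle and 5.06 ± 0.20 in control (SD, n = 3 each), a difference of 1.12 ± 0.15 (SE, limma adjusted p = 0.0484). It had the 38th smallest p of all genes. Cd79a was above the olfactory receptor yardstick on all 3 sickle arrays and on 2 of 3 control arrays, where it lay close to it. The call lay close to the threshold: with each array left out in turn it was made in 0 of 6 fits, although the difference stayed between 1.0 and 1.23, and without sickle replicate 3 the difference was 1.23 (limma adjusted p = 0.0600).

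Cd79b encodes Ig-beta, the partner chain of Ig-alpha in the same complex. It had 5.59, 5.0 and 5.44 in sickle mice, against 4.59, 4.84 and 4.62 in control mice. The groups did not overlap, but sickle replicate 2 was only 0.15 above the highest control array. The difference was 0.65 ± 0.16 (SE, limma adjusted p = 0.378), and 0.61 without sickle replicate 3. Ms4a1 encodes CD20, a tetraspan protein of the B-cell surface. It had 5.32, 5.0 and 5.06 in sickle mice, against 4.34, 4.48 and 4.51 in control mice. These groups stood 0.49 apart at their nearest arrays. The difference was 0.69 ± 0.12 (SE, limma adjusted p = 0.142), the 63rd smallest p of all genes, and 0.72 without sickle replicate 3. Both genes lay above the olfactory receptor yardstick on all 3 sickle arrays and on 0 of 3 control arrays, so the control signal is near the floor of the array, where log2 differences tend to be compressed.

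**Figure D1:**
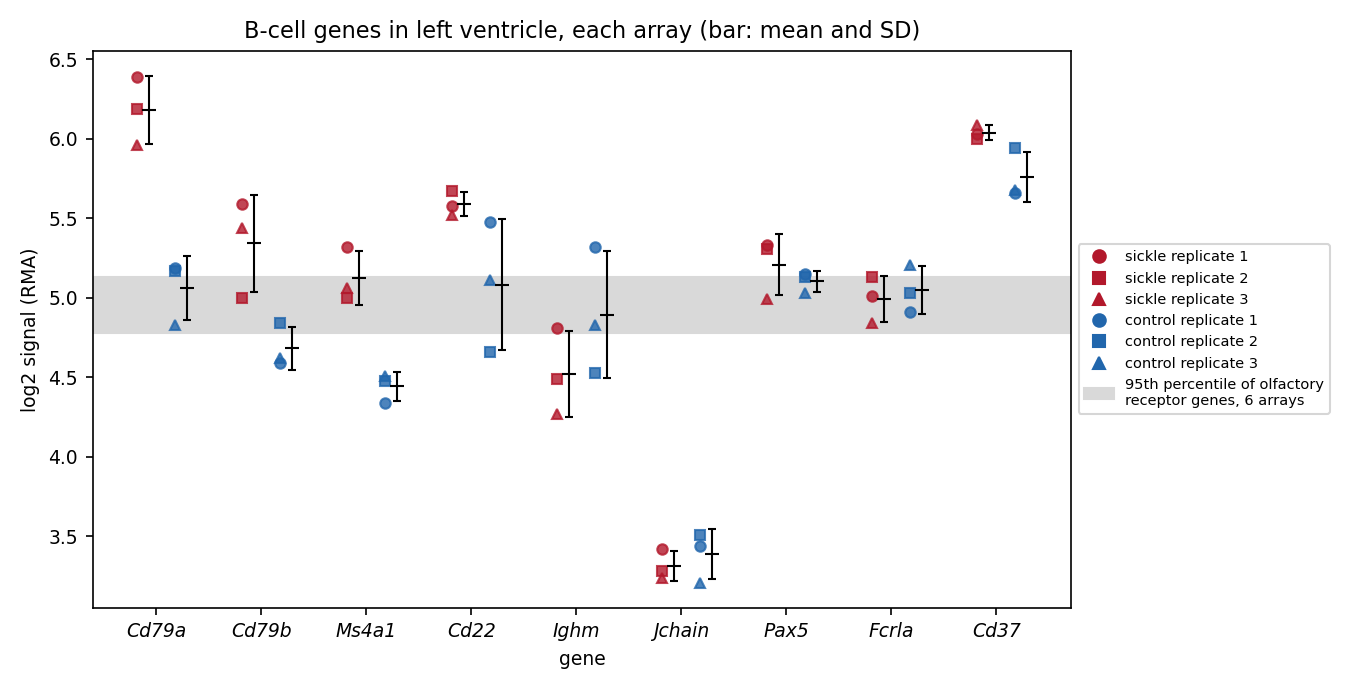
Log2 signal of the 9 B-cell genes (y axis) in each sickle (red, left of each pair) and control (blue) array, with mean and SD beside the points; the grey band is the range over the 6 arrays of the 95th percentile of olfactory receptor genes. Cd79a, Cd79b, Ms4a1, Cd22 and Cd37 have all sickle arrays above all control arrays, while Ighm, Jchain, Pax5 and Fcrla overlap.

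Cd22 encodes a lectin that binds sialic acid and dampens receptor signalling. It had 5.58, 5.67 and 5.52 in sickle mice, against 5.48, 4.66 and 5.11 in control mice. The sickle arrays were close together (SD 0.08) and the control arrays spread widely (SD 0.41), with a gap between the groups of 0.04. Its difference of 0.51 ± 0.19 (SE) did not pass (limma adjusted p = 0.551). Cd37 encodes a tetraspanin of B cells that other leukocytes also carry. It had 6.03, 6.0 and 6.09 in sickle mice, against 5.66, 5.94 and 5.68 in control mice, and it was the 1 gene of the 9 above the olfactory receptor yardstick on all 6 arrays. The groups were 0.06 apart and differed by 0.29 ± 0.11 (SE, limma adjusted p = 0.545). Without sickle replicate 3 the differences were 0.54 for Cd22 and 0.26 for Cd37.

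Ighm and Jchain, the antibody genes, had overlapping groups. Ighm had 4.81, 4.49 and 4.27 in sickle mice, against 5.32, 4.53 and 4.83 in control mice. Here 2 of the 3 sickle arrays lay below every control array, and the difference was -0.37 (95% interval -0.88 to 0.14, limma adjusted p = 0.653). Only 1 of the 6 arrays, control replicate 1, was above the olfactory receptor yardstick, so this order lies largely within background signal. Whether related heavy-chain constant genes add to the Ighm row's signal was not tested. Jchain encodes the joining chain of secreted IgM and IgA, which plasma cells make. It had 3.42, 3.28 and 3.24 in sickle mice, against 3.44, 3.51 and 3.21 in control mice, below the olfactory receptor yardstick on all 6 arrays. Its difference was -0.07 (95% interval -0.34 to 0.19), so a difference in this RNA was not detectable at its signal.

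Pax5 and Fcrla had overlapping groups, and each was above the olfactory receptor yardstick on 5 of 6 arrays, at signals close to it. Pax5 had 5.33, 5.31 and 4.99 in sickle mice, against 5.15, 5.13 and 5.03 in control mice. Sickle replicate 3 was the lowest of its 6 arrays and the other sickle arrays were the highest. The difference was 0.11 (95% interval -0.17 to 0.38, limma adjusted p = 0.808), and 0.22 without sickle replicate 3. Fcrla encodes a protein related to Fc receptors that stays inside B cells. It had 5.01, 5.13 and 4.84 in sickle mice, against 4.91, 5.03 and 5.21 in control mice, with a difference of -0.06 (95% interval -0.34 to 0.22). That value was 0.018 without sickle replicate 3, and 0.021 without control replicate 3, so its sign was not settled.

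Across the 9 genes, 6 were higher and 3 lower in sickle, with a median difference of 0.29, against -0.007 over all genes. Without sickle replicate 3 the median was 0.26. The groups had no overlap, with sickle higher, in 5 of the 9 genes, against 7.61% of all genes. The same 5 genes had an unadjusted p under 0.05 in that direction, against 4.3% of all genes. Without sickle replicate 3 these counts were 6 and 4, against 13.5% and 4.83% of all genes. The 9 genes share cells and arrays and are not independent of each other. They were chosen with earlier results of these data known, so these counts describe the list and are not a test of it. Over the 6 arrays, Cd79a and Ms4a1 had a Pearson correlation of 0.93 and Cd79b and Ms4a1 0.93, while Cd79a and Ighm had -0.41; these points share their arrays and include the group difference.

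Cd79a, Cd22 and Cd37 lie on chromosome 7, which also carries the beta-globin locus. On that chromosome 3 of 1896 genes (0.158%) were called higher, and 33 of 19610 elsewhere (0.168%). The 3 include Cd79a itself. Distance to the locus was not examined, so an effect of the alleles on nearby genes was not tested.

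The 250 bases before a transcript start in the RefSeq promoter table are shown for Cd79a, Cd22 and Cd37, whose groups did not overlap, and for Fcrla, whose groups overlapped (RefSeq, GRCm38.p6, each 5′ to 3′ on its gene's strand). For Cd22, Cd37 and Fcrla the start that the table uses lies inside the annotated gene, downstream of its outermost end, so these stretches precede a start within the gene. Of the 9 genes, 6 matched that table. Capitals mark the letters of 4 motifs named for factors of B-cell development, searched on both strands: ATGCAAAT (the octamer), CCCNNGGG (EBF1), AGAGGAAG (PU.1) and CAGGTG (E2A).
Cd79a (chr7:24897247-24897496, plus strand): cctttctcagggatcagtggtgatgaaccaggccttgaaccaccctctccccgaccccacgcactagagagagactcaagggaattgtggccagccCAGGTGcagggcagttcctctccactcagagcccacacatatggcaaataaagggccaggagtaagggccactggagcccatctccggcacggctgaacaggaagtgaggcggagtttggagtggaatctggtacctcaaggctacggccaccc
Cd22 (chr7:30879029-30879278, minus strand): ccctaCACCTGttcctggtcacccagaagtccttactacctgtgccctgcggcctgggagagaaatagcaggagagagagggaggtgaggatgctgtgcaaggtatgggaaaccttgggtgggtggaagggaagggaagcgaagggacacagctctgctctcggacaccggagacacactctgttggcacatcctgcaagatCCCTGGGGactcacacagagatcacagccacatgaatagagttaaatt
Cd37 (chr7:45238840-45239089, minus strand): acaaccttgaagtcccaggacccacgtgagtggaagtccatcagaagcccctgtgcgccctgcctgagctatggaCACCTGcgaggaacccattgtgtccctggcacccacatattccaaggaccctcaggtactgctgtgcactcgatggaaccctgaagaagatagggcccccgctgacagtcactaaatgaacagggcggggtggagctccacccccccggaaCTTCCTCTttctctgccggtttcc
Fcrla (chr1:170927584-170927833, minus strand): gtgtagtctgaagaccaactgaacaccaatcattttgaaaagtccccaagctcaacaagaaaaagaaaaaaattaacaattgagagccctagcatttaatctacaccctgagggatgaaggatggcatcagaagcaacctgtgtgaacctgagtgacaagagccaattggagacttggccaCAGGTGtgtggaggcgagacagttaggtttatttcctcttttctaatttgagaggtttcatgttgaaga

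CAGGTG or its reverse complement stood in 4 of the 6 promoters (Cd79a, Cd22, Cd37 and Fcrla), against 17.2% of 32851 promoters in the table. It stood both in genes whose groups were apart and in Fcrla, whose groups overlapped. The promoters of Pax5 and Jchain, whose groups also overlapped, had 0 matches to any of the 4 motifs. The EBF1 letters stood in Cd22 (11.8% of all promoters), the PU.1 letters in Cd37 (3.67%) and the octamer in 0 of the 6 (1.60%); 0 of the 4 motifs overlapped another. These are matches of letters, not sites.

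Other genes of the B lineage were mostly higher in sickle. Of 26 measured genes, which include surface receptors, transcription factors and antigen-presentation genes of B cells, 23 were higher, with a median difference of 0.37. After adjustment over all genes 1 rose and 0 fell. That gene was Cd24a, a surface antigen of immature B cells that red-cell precursors also carry, with 10.10, 10.54 and 10.17 in sickle mice, against 8.12, 7.84 and 7.85 in control mice (difference 2.33 ± 0.15, SE, limma adjusted p = 0.00274). The list's groups had no overlap, with sickle higher, in 16 of 26 genes, against 7.61% of all genes, and 14 had an unadjusted p under 0.05 in that direction, against 4.3%. Without sickle replicate 3 these counts were 19, against 13.5% of all genes, and 16, against 4.83%, and the median was 0.38. Cr2, Tnfrsf13b, Vpreb3 and Fcrl5 lay below the olfactory receptor yardstick on all 6 arrays, and 13 of the 26 genes were above it on all 6. Over all arrays, the 16 genes without overlap include Cd24a and the dim genes Tnfrsf13b and Vpreb3 (difference 0.09). They also include Ebf1, whose control mean of 8.62 was above that of each of the 9 B-cell genes. This list too was chosen with earlier results of these data known. Which cells its signal came from was not tested.

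Among the B-cell genes of antigen presentation, H2-Ob, a chain of the H2-O modulator of peptide loading, had 5.80, 5.65 and 5.86 in sickle mice, against 5.36, 5.17 and 5.33 in control mice. Its difference was 0.48 ± 0.10 (SE, limma adjusted p = 0.278). Ikzf3, which encodes the lymphoid transcription factor Aiolos, had 5.59, 5.26 and 5.31 in sickle mice, against 4.87, 5.04 and 4.74 in control mice. Both genes had every sickle array above every control array without passing the test. Chosen after their values were seen, Fcrl1, an Fc receptor-like protein of B cells, differed by 0.49, the inhibitory receptor gene Btla by 0.54, and Fcmr, the IgM Fc receptor gene, by 0.66, each without overlap. Others of the list lay near 0: Tnfrsf13c, the receptor for the survival factor BAFF, differed by 0.013, Cd40, the receptor for T-cell help, by -0.007 and Siglecg, an inhibitory lectin gene, by -0.027 (also chosen after their values were seen).

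**Figure D2:**
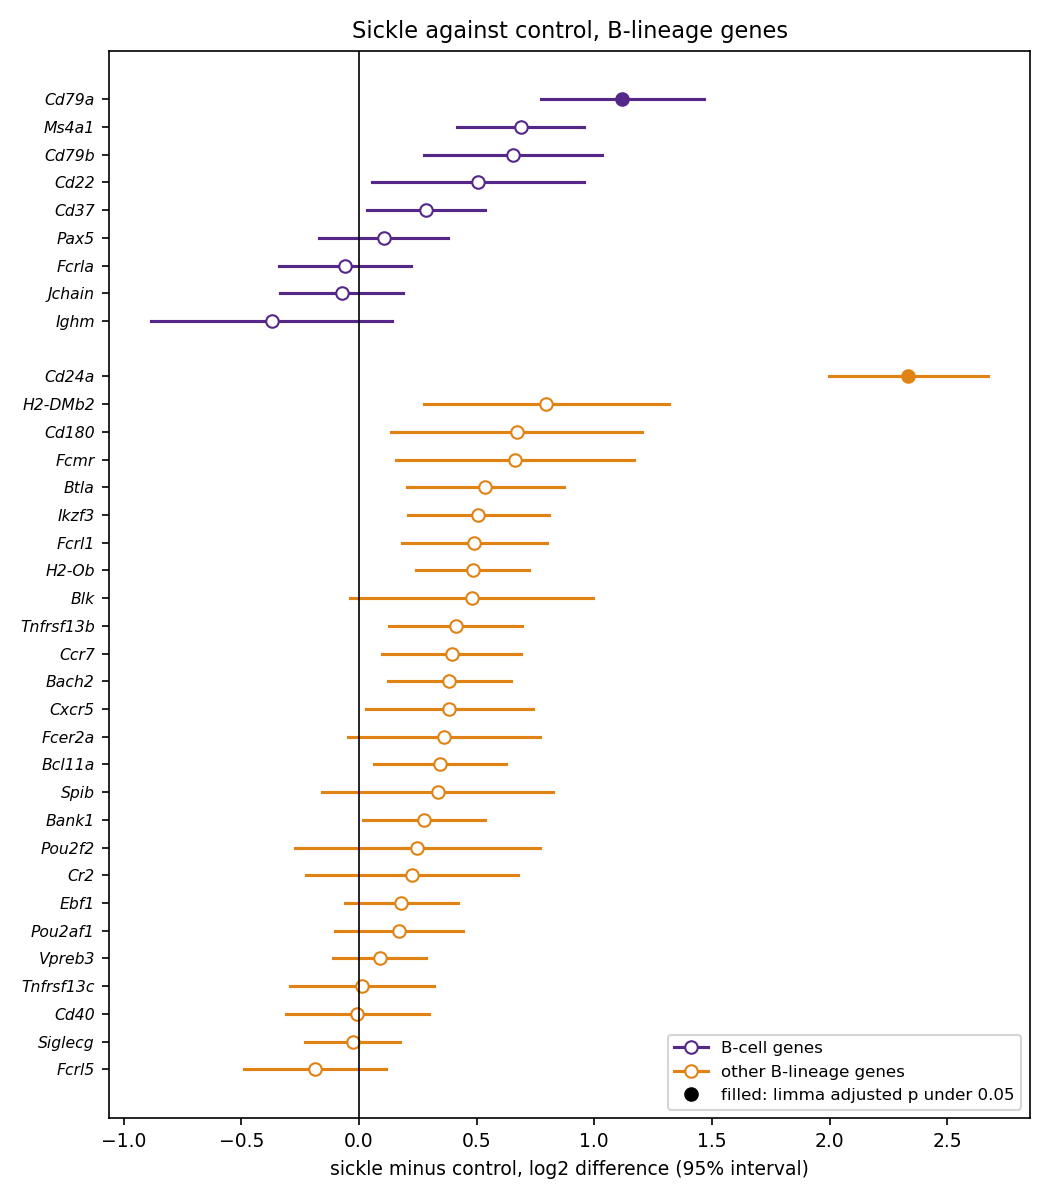
Sickle minus control log2 difference with its 95% limma interval (x axis) for the 9 B-cell genes (purple) and 26 other B-lineage genes (orange); filled points have a limma adjusted p under 0.05. Cd79a and Cd24a are the 2 filled points, 6 of 9 and 23 of 26 genes lie to the right of 0, and Ighm is the lowest of the 9.

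The genes that carry the signal onward from the receptor are shared with other blood cells. Of 14 measured, 13 were higher in sickle and 0 passed in either direction, with a median of 0.33 that was 0.14 without sickle replicate 3. Prkcb, the protein kinase C beta of receptor signalling, had 6.44, 6.54 and 6.99 in sickle mice, against 6.03, 6.02 and 5.63 in control mice (difference 0.76 ± 0.17, SE, limma adjusted p = 0.325). Bank1, a B-cell scaffold protein that this list shares with the one above, differed by 0.28 ± 0.11 (SE), and Dapp1, an adaptor downstream of phosphoinositide 3-kinase, by -0.32 ± 0.12 (SE). Dapp1 was the 1 member below control over all arrays, and it was -0.41 without sickle replicate 3. Without that array 11 of the 14 were higher, and Syk (-0.06) and Blnk (-0.05) were also below control. Like Bank1, Cr2 and Blk are also on the list above.

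Markers of other blood cells moved beside the B-cell genes to differing degrees. Red-cell and reticulocyte genes had the greatest median of the cell-type lists measured here, 1.31 over 20 genes, with 18 higher and 11 called higher, where 48.4% of all genes were higher and 0.167% were called higher. The lists were chosen with earlier results of these data known, so this median and these counts partly reflect that choice. Relative to control, the 3 sickle arrays had medians for this list of 1.05 (replicate 1), 1.63 (replicate 2) and 1.34 (replicate 3), and the control arrays lay between -0.06 and 0.02. Summed over the list on the linear scale, the signal ranged from 7061 to 10005 in sickle and from 2932 to 3246 in control. The lowest sickle array for the red-cell list, replicate 1, was the highest for Cd79a (1.33 above the control mean), Cd79b (0.90) and Ms4a1 (0.88). Cd22 was instead highest in sickle replicate 2 (0.59) and Cd37 in sickle replicate 3 (0.34). Slc4a1, the anion exchanger of the red-cell membrane, had 9.3, 10.0 and 10.55 in sickle mice, against 7.0, 6.44 and 6.47 in control mice, and sickle replicate 1 was its lowest sickle array. Among these red-cell genes Tent5c, a poly(A) polymerase, differed by 2.42, Bpgm, which makes 2,3-bisphosphoglycerate, by 1.71 and Ube2l6, a ubiquitin-like protein conjugating enzyme, by 1.78 (limma adjusted p from 0.00274 to 0.00870). Kel was the 1 red-cell gene below the olfactory receptor yardstick on all 6 arrays.

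The summed linear signal of the 9 B-cell genes ranged from 342 to 396 in sickle and from 269 to 292 in control, with no overlap. T-cell genes had a median of 0.25, with 12 of 16 higher and 0 called in either direction, and sums of 629 to 736 in sickle against 540 to 577 in control. Cd8b1, a chain of the CD8 co-receptor, differed by 0.67 ± 0.18 (SE), Cd3g of the T-cell receptor complex by 0.89 ± 0.31 (SE) and Zap70, its kinase, by -0.29 ± 0.11 (SE). Of the T-cell markers Cd8a, Themis and Cd27 were below the olfactory receptor yardstick on all 6 arrays. Natural killer cell genes had a median of 0.17, with 10 of 12 higher, 0 called, and sums of 405 to 459 in sickle against 339 to 365 in control. The chemokine gene Ccl5 differed by 0.71 ± 0.11 (SE), the receptor gene Klrd1 by 0.81 ± 0.17 (SE) and Il2rb, a chain of the IL-2 receptor, by 0.34 ± 0.10 (SE). In this list Klrk1, Gzma, Gzmb, Eomes and Klre1 were below the yardstick on all 6 arrays.

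Of 18 neutrophil genes, 12 were higher and 6 lower, with a median of 0.10 and 0 called. Their summed signal overlapped, from 507 to 801 in sickle and from 547 to 692 in control. S100a8, S100a9, Ly6g, Ngp, Camp, Ltf, Retnlg, Il1r2, Mpo and Stfa2l1 were below the olfactory receptor yardstick on all 6 arrays, while Csf3r, Lcn2, Hdc and Prtn3 were above it on all 6 and the other 4 on some. Ngp, a granule protein gene, differed by 0.25, Hdc, the histidine decarboxylase gene, by 0.28, and Camp, of the cathelicidin peptide, by -0.30. Platelet genes had a median of 0.13 (9 of 13 higher, 0 called), 0.05 without sickle replicate 3, and sums of 794 to 1614 in sickle against 752 to 808 in control. Ppbp, the platelet basic protein gene, differed by 0.61 ± 0.23 (SE), Selp, of P-selectin, by 0.71 ± 0.27 (SE) and Tubb1, the platelet beta-tubulin, by 0.31 ± 0.13 (SE). Gp6 and Clec1b, both platelet receptor genes, were below the yardstick on all 6 arrays.

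**Figure D3:**
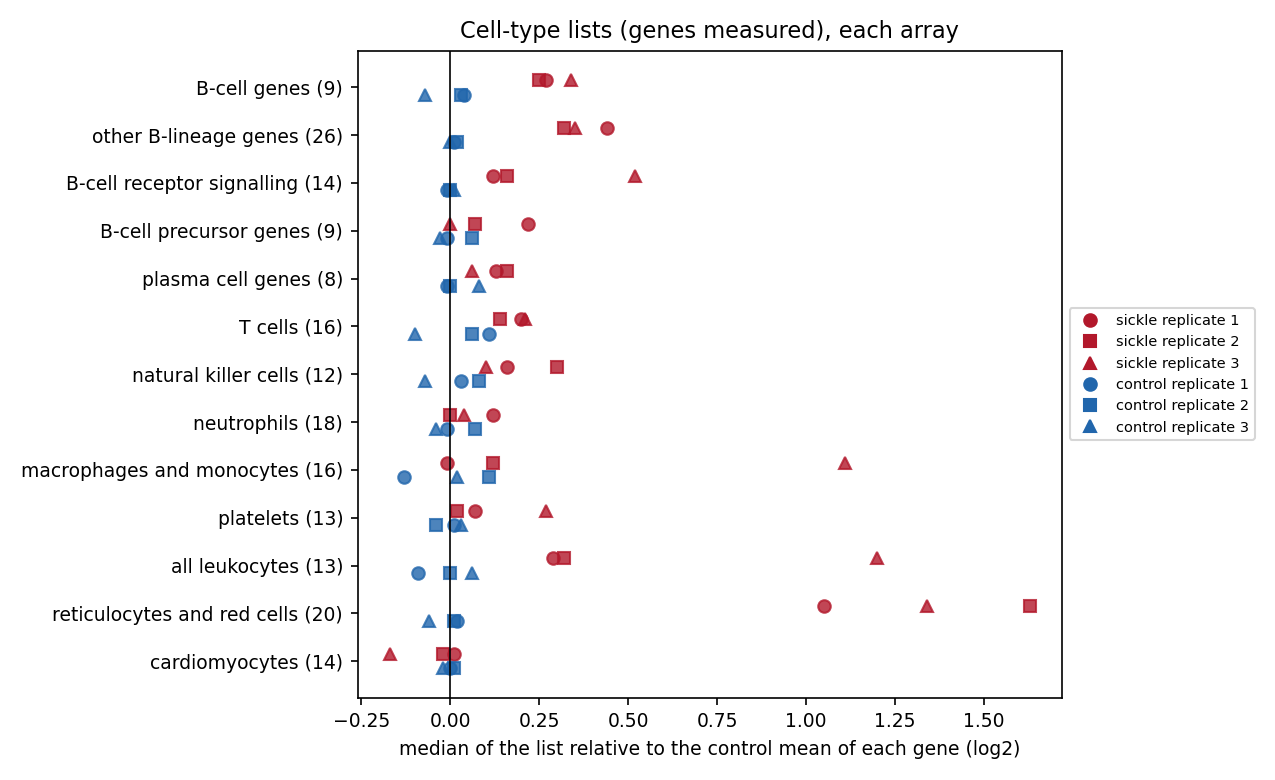
Median over each cell-type list of the log2 signal relative to the control mean of each gene (x axis), 1 point per sickle (red, upper row of each pair) or control (blue) array; the number of genes measured is in brackets. Red-cell genes lie from 1.05 to 1.63 in sickle, the B-cell and other B-lineage lists from 0.25 to 0.44, and the macrophage list is at 1.11 in sickle replicate 3 alone.

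Macrophage and monocyte genes had a median of 0.41 (14 of 16 higher, 0 called), which was 0.06 without sickle replicate 3. Set against the control mean, the list stood at 1.11 in sickle replicate 3, whereas replicate 1 had -0.01 and replicate 2 had 0.12, with sums of 3080 to 6957 in sickle against 2833 to 3283 in control. Csf1r, the receptor of macrophage growth factor, differed by 0.63, Lyz2, of lysozyme, by 0.71 and Adgre1, of a macrophage surface antigen, by 0.75. All 16 of its genes lay above the yardstick. Sickle replicate 3 was not the highest array for Cd79a, Cd79b or Ms4a1. Their differences without it (1.23, 0.61 and 0.72) can be set beside those over all arrays (1.12, 0.65 and 0.69). Cd37, however, had its highest value in sickle replicate 3 (6.09). The median of the 9 B-cell genes above their control means was also greatest there (0.34, against 0.27 in replicate 1 and 0.25 in replicate 2). The summed linear signal of the 9 genes was instead lowest there among the sickle arrays (342).

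Genes of all leukocytes were higher, 13 of 13, with a median of 0.61, and 0 passed. Without sickle replicate 3 the median was 0.31, with 12 of 13 higher. Ptprc, of the common leukocyte antigen CD45, had 7.56, 7.51 and 8.33 in sickle mice, against 6.63, 6.66 and 6.72 in control mice. Its difference was 1.13 ± 0.21 (SE, limma adjusted p = 0.191), and Cytip, a lymphocyte adhesion regulator, differed by 1.05 ± 0.18 (SE) and Dock2, of leukocyte migration, by 0.77 ± 0.19 (SE). The list's sums were 1239 to 1970 in sickle and 921 to 998 in control, and its genes all reached the yardstick on at least 1 array. Cardiomyocyte genes had a median of -0.07 (10 of 14 lower, 0 called), including the Z-disc genes Ldb3 (-0.26), Tcap (-0.22) and Myoz2 (-0.17), and sums of 80411 to 89515 in sickle against 87846 to 89461 in control.

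Blood held in the tissue would carry red cells, lymphocytes, neutrophils and platelets together. The summed signals of red-cell, B-cell and T-cell genes did not overlap between the groups and were higher in sickle. The neutrophil sums overlapped (507 to 801 in sickle, 547 to 692 in control), and so did the platelet sums (794 to 1614 in sickle, 752 to 808 in control). Of the 18 neutrophil genes, 10 were below the olfactory receptor yardstick on all 6 arrays. Linear sums weigh bright genes most, such as Lcn2 (8.45) and Thbs1 (9.46) in sickle replicate 3. In the same array this holds for Fech (10.71) in the red-cell list and Thy1 (7.65) in the T-cell list. None of these sums, whether the groups overlapped or not, can therefore show how much blood was held. The part of residual blood in the B-cell differences was not tested.

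**Figure D4:**
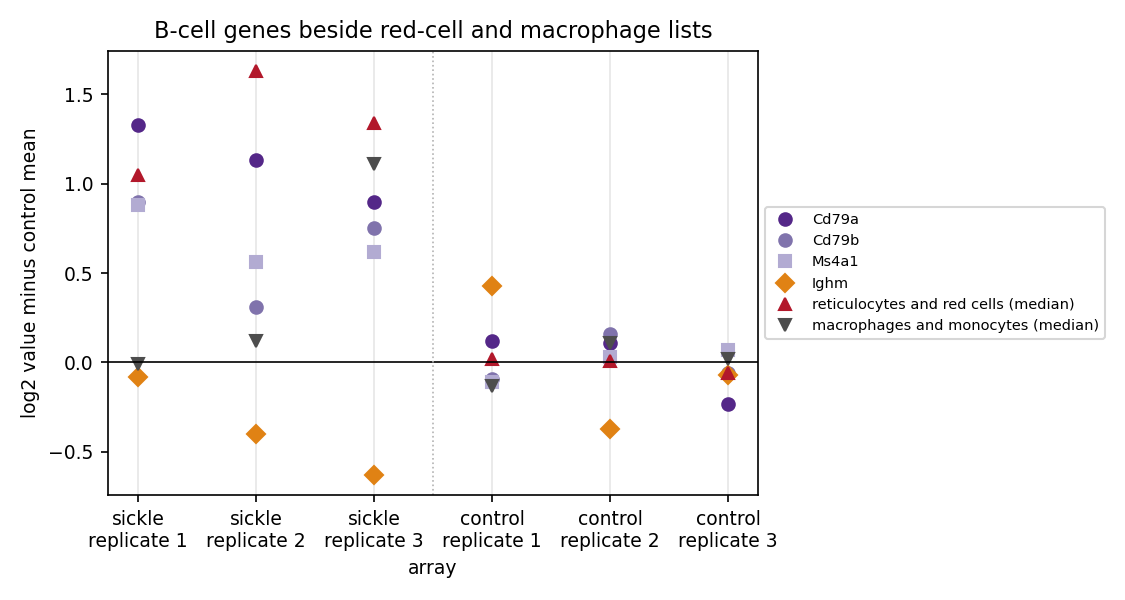
Log2 value minus the control mean (y axis) in each array (x axis; the 3 sickle arrays left) for Cd79a, Cd79b, Ms4a1 and Ighm, and for the medians of the red-cell and macrophage lists. In sickle replicate 1 the red-cell median is lowest of the 3 sickle arrays (1.05) and Cd79a highest (1.33), and the macrophage median is high only in sickle replicate 3 (1.11). Cd22 and Cd37, which are not drawn, were highest in sickle replicate 2 and sickle replicate 3.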

How the data were processed

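The authors ran RMA and deposited its log2 values, per the submitters' processing notes, which give no version; the scale was read from the values. Of 25293 rows, 22030 had 1 gene symbol under the array platform annotation. The brightest row by mean over the 6 arrays stood for a gene, which left 21506 genes. Limma 3.58.1 in R 4.3.3 (lmFit, eBayes, group as the only term, two-sided, Benjamini-Hochberg over all genes at 0.05) gave the tests, with 4 residual and 3.61 prior degrees of freedom. Per the labels, each array is a different mouse; no scan date or batch was found in the labels or the table. The number of arrays limits the precision. Each listed B-cell gene had 1 row. Members and lists were chosen with earlier results of these data known. Named genes are the 9 members, the 3 genes of each other list with the smallest p, and the 5 genes most like the members' mean profile. Slc4a1 was also named, as were Xist and olfactory receptor genes as background. All other genes were named outside this rule, after values were seen, whether or not they are marked so. Listed genes that are not named as measured had no row with 1 symbol. The alternatives were other normalisations, variance models, array weights, rows per gene, a filter on dim genes, the replicate number as a block, and leaving out each array. Figures were drawn with matplotlib 3.10.9.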

Additional observations from a re-analysis of the deposited data

How the results depend on the processing

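With each array left out in turn, 0 of the 9 B-cell genes passed in all 6 fits, between 4 and 36 of all genes passed, and the median difference of the 9 genes lay between 0.24 and 0.31. Cd79a passed in 4 of 15 alternatives (genes with a mean log2 value of at least 5, variance trend and robust, array weights, every row on its own) and not in 11, with limma adjusted p from 0.0209 to 0.382. Among the 11, the count of B-cell genes passed was 0 after a second quantile normalisation, median centring of the arrays, the mean over a gene's rows, the replicate block and a test with no shared variance. The last gave 0 of all genes, against 39, although 1868 had an unadjusted limma p under 0.05 with shared variance. The fit with the replicate number as a block called 12 genes. Same-numbered arrays share only a number: their deviations from the group means correlated at 0.11, -0.05 and 0.05, and 3 of 6 arrays correlated best with their own number. With genes of a mean of at least 5 alone, 6 of the 9 were left and their median was 0.40, since dimmer members were dropped. Of the 9 genes, Fcrla turned its sign, to 0.018 without sickle replicate 3 and 0.021 without control replicate 3 (range with 1 array left out -0.13 to 0.021); the cause was not tested. Each gene except Fcrla kept its direction in the alternatives that measured it, and none of the 8 genes other than Cd79a passed in any (lowest limma adjusted p 0.0836). The counts without sickle replicate 3 given for genes without overlap (6 of 9 and 19 of 26) and with an unadjusted p under 0.05 (4 and 16) were alternatives chosen after seeing the data. Signals near the olfactory receptor yardstick limit what Ighm, Jchain, Ms4a1, Cd79b, Cd22, Pax5 and Fcrla can show. Cd22 was above the yardstick on 1 of the 3 control arrays and Cd79a on 2 of 3, so the size of the Cd79a difference is limited too.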

Other observations

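Genes of B-cell precursors were split. Of 9 measured, 5 were higher and 4 lower in sickle, 0 passed in either direction, and the median difference was 0.25. Rag2, of the recombinase that assembles receptor genes, had 3.01, 3.11 and 3.10 in sickle mice, against 3.45, 3.24 and 3.73 in control mice (difference -0.41 ± 0.13, SE). Rag2, Vpreb1, Igll1 and Dntt, which act in early B-cell development, lay below the 95th percentile of olfactory receptor genes on all 6 arrays. Cd93, carried by immature B cells and by endothelium, had 9.25, 9.44 and 9.42 in sickle mice, against 9.05, 9.04 and 9.0 in control mice (difference 0.34 ± 0.09, SE, limma adjusted p = 0.424). Il7r, the receptor for IL-7, differed by 1.03 ± 0.38 (SE), and by 0.62 without sickle replicate 3.

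Plasma cell genes had a median of 0.13, with 5 of 8 higher and 0 called. Irf4, a transcription factor of activated B cells and plasma cells, had 4.62, 4.70 and 4.76 in sickle mice, against 4.12, 4.44 and 4.35 in control mice (difference 0.39 ± 0.11, SE), all below the olfactory receptor yardstick. Sdc1, of the plasma cell marker syndecan-1, differed by 0.32 ± 0.13 (SE) and Fkbp11, a folding enzyme of secretory cells, by 0.26 ± 0.11 (SE). Tnfrsf17, the plasma cell receptor BCMA, differed by -0.24 and Xbp1, of the secretory programme, by -0.02 (both chosen after their values were seen).

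The 5 other genes whose profile over the 6 arrays was most like the mean of the 9 B-cell genes were 5830418P13Rik, B4galt6, Atp11a, Podxl and Dio3, with Pearson correlations from 0.987 to 0.997. None of the 5 is on the B-lineage lists, and 41 genes had a correlation over 0.95 across these 6 arrays.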
